A study of Mus musculus with 4 samples.

Results

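This section describes 50 short stretches of the nuclear mouse genome where crosslink sites of the splicing factor SRSF4 were narrow and tall. A run here joins listed sites of a chromosome and strand that lie less than 500 nt after the one before. The 50 were selected on the deposited values themselves: runs off the mitochondrial chromosome, at most 100 nt wide, whose sites summed to 100 or more cDNAs. A further run that met these limits, on the minus strand of chromosome 9 from 78023141, was left out by the rule, which takes it for the 7SK small nuclear RNA. That identity was not checked here, because no annotation on the mm9 build of the list was at hand. For the same reason no gene, RNA class or sequence is given for the 50 runs, and they are named by mm9 position (1-based). The 50 are among 6415 runs in the list, 6405 of them nuclear. They hold 1400 of 33749 sites and 11942 of 93371 cDNAs.

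Cardiomyocytes were taken from newborn C57BL/6 mice (P0 to P1) and given 15 μg of modified RNA for an SRSF4-GFP fusion, so that the fusion was made from added RNA and not from the native gene. Ultraviolet light at 254 nm and 100 mJ was applied 48 h later, and the fusion was pulled down with an antibody against GFP (iCLIP). The labels describe 4 libraries in 1 group and no GFP-only, input or untransfected control. The markers that define cardiomyocytes could not be checked, since the list names no genes.

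SRSF4 belongs to the serine and arginine-rich proteins, which hold RNA through recognition motifs and help the spliceosome choose exons. In iCLIP the reverse transcriptase tends to stop at or next to the nucleotide where protein and RNA were joined by ultraviolet light. A cDNA start therefore often, but not always, lies at or next to a contact. Many cDNAs within a short stretch can come from a short, abundant RNA or from a small contact on a longer one, and the list does not tell these apart.

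All values are whole numbers of cDNAs, summed by the authors over 5 data sets into a single list of significant sites. There is no value per library, so no spread between replicates can be given for any run. Intervals below are 95% exact binomial intervals and cover counting error only. The cDNAs, width, number of sites and tallest nucleotide of these runs come from the values that chose them, and are given as description without a test.

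Depth varied widely among the 50. Between 100 and 892 cDNAs lay in a run, with a median of 187. Only 4 runs had 500 or more, 19 had at least 200 but under 500, and 27 had under 200. The 10 deepest runs together carried 5232 cDNAs, 43.8% of the 11942. As a set, the 50 made up 0.779% of runs and 4.15% of sites but 12.8% of cDNAs of the whole list, which follows from the limit on cDNAs.

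The deepest run lay on the minus strand of chromosome 12, chr12:102007276-102007314. It was broad: 38 of its 39 nt held a site, and the tallest nucleotide, at 102007294, had 78 cDNAs or 8.74%. Its 892 cDNAs lay mostly in a lower block near the 5′ end and a higher block after it. Between these blocks, nucleotides 13 and 14 held 1 and 4 cDNAs. The next, chr12:55797766-55797814 on the plus strand, had nearly as many cDNAs (887) but a different form. There 296 cDNAs stood on the nucleotide at 55797796 and 110 on the one after it, with lower peaks of 88 cDNAs at 55797812 and 50 at 55797768.

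The third run, chr16:11144137-11144200 on the plus strand, put 154 and 181 of its 611 cDNAs on adjacent nucleotides at 11144152 and 11144153. The fourth, chr6:47689896-47689954 on the minus strand, held 604 cDNAs on 51 sites, with 74 and 71 on adjacent nucleotides. The fifth, chr6:72756955-72757017 on the plus strand, had 497 cDNAs on 38 sites, and its tallest nucleotide (72 cDNAs) was the third from the 3′ end. In the sixth, chr1:146071935-146071965 on the minus strand, 80% of 405 cDNAs fit in a window of 4 nt. The shapes therefore ran from a broad signal to a spike already among the deepest runs.

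The next 4 runs were wider, at 66 to 94 nt. They were chr6:128749486-128749561 (minus strand, 352 cDNAs), chr5:115939464-115939555 and chr5:115940260-115940353 (plus strand, 341 and 324 cDNAs), and chr6:49186514-49186579 (minus strand, 319 cDNAs). None of these 4 put more than 21.6% of its cDNAs on the tallest nucleotide.

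**Figure D1:**
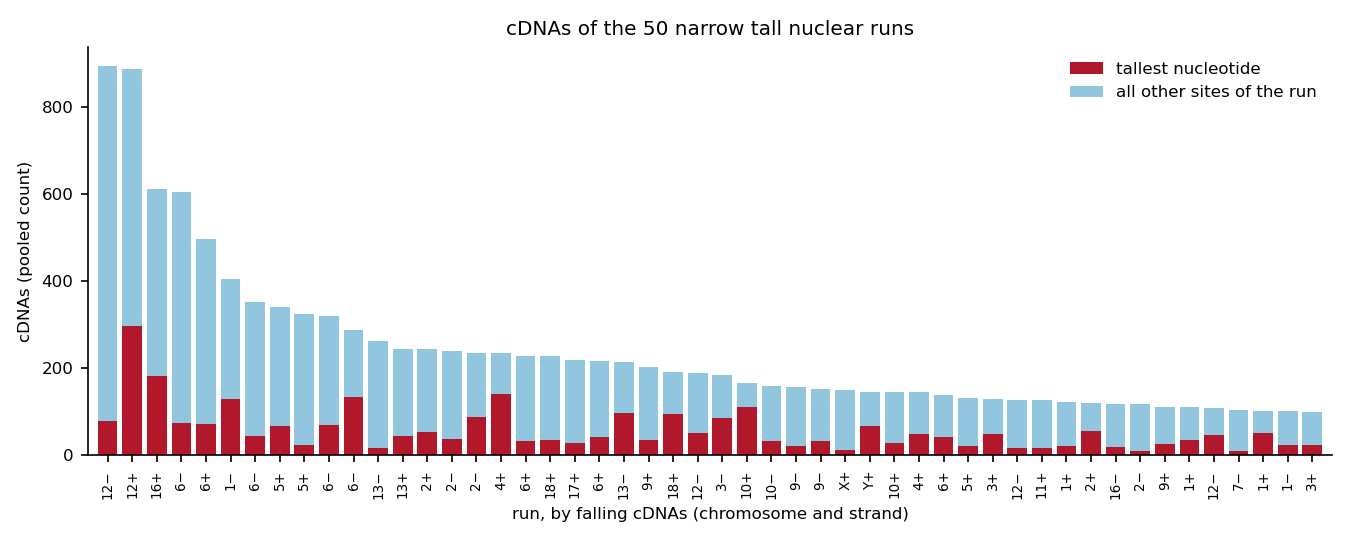
cDNAs of each of the 50 runs (vertical axis, linear, pooled count), ordered by falling cDNAs and labelled by chromosome and strand; the red part is the tallest nucleotide and the blue part all other sites. The red part is small in the deepest run (78 of 892) and large in the plus-strand runs on chromosomes 4 (141 of 235) and 10 (112 of 166).

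**Figure D2:**
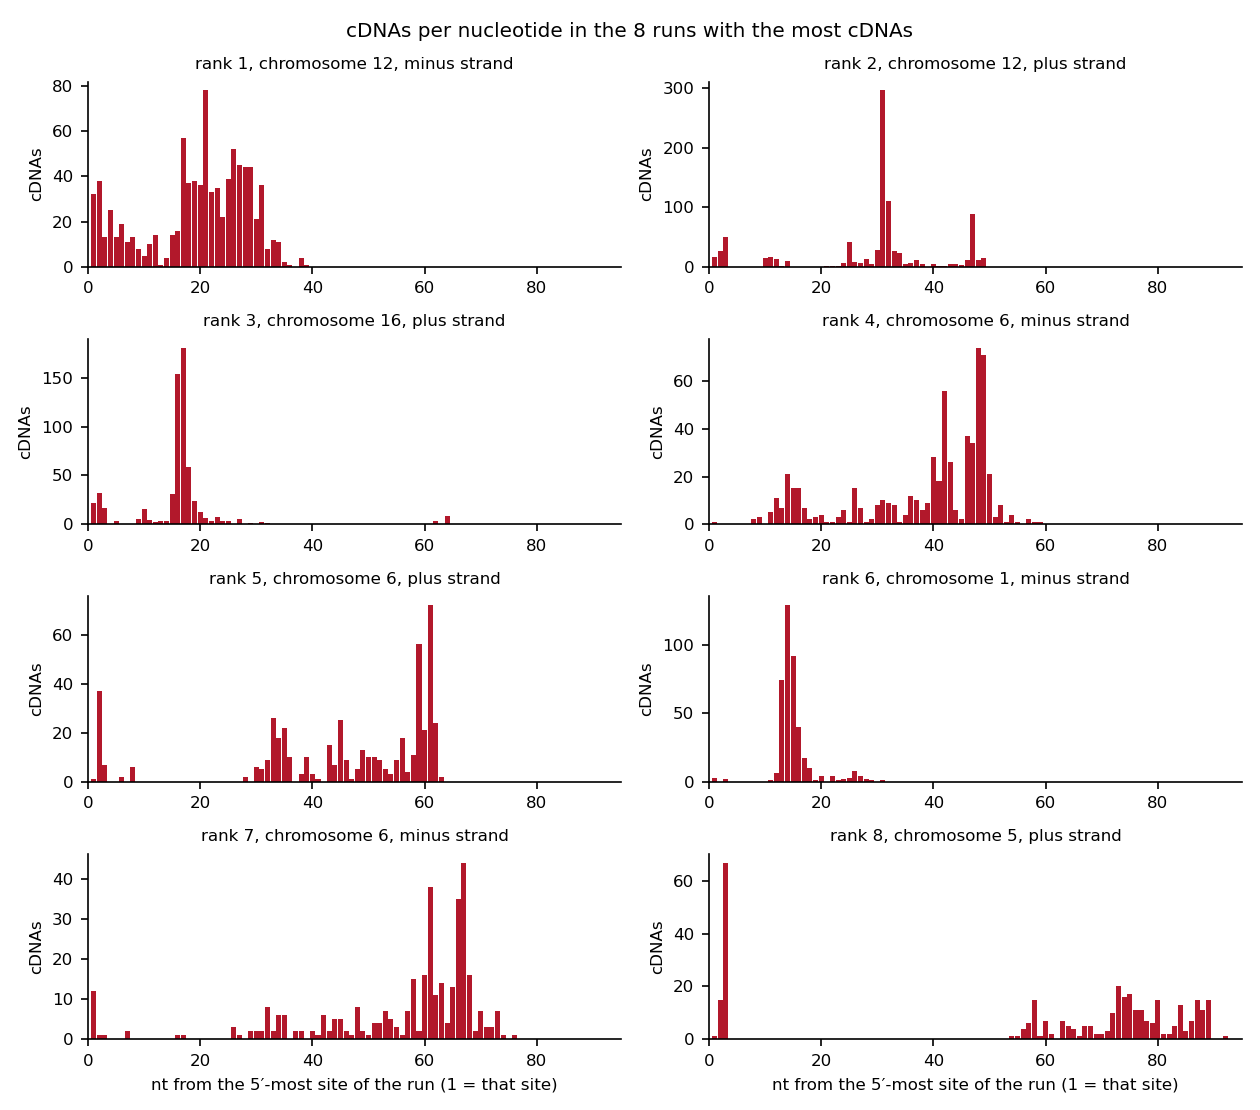
cDNAs per nucleotide (vertical axes, linear, a different scale in each panel) along the 8 runs with the most cDNAs, read 5′ to 3′ from the first site of the run (horizontal axis, nt). Rank 1 is broad, up to 78 cDNAs, with a dip at nucleotides 13 and 14. Ranks 2, 3 and 6 are spikes of 296, 181 and 129, and rank 8 has a spike at nucleotide 3 followed by 50 nt with no site.

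The cDNA limit cut through a continuous range of runs, but the width limit fell in a gap. Just above the cDNA limit were a plus-strand run that starts at 43827079 on chromosome 3 (100 cDNAs) and runs on chromosome 1 from 172958093 (plus strand) and 173433204 (minus strand), both with 102. Just below it were runs on chromosome 13 from 16132962 (99 cDNAs), chromosome 3 from 19460250 (99) and chromosome 5 from 125884635 (96). For width, the widest runs kept were 94, 93 and 92 nt wide, and the narrowest wide runs of 100 or more cDNAs were 132, 138 and 141 nt, so no run of that depth fell between 94 and 132 nt. One of these, 138 nt wide on the minus strand of chromosome 18 from 10151004, held 84.1% of its 258 cDNAs on a single nucleotide.

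**Figure D3:**
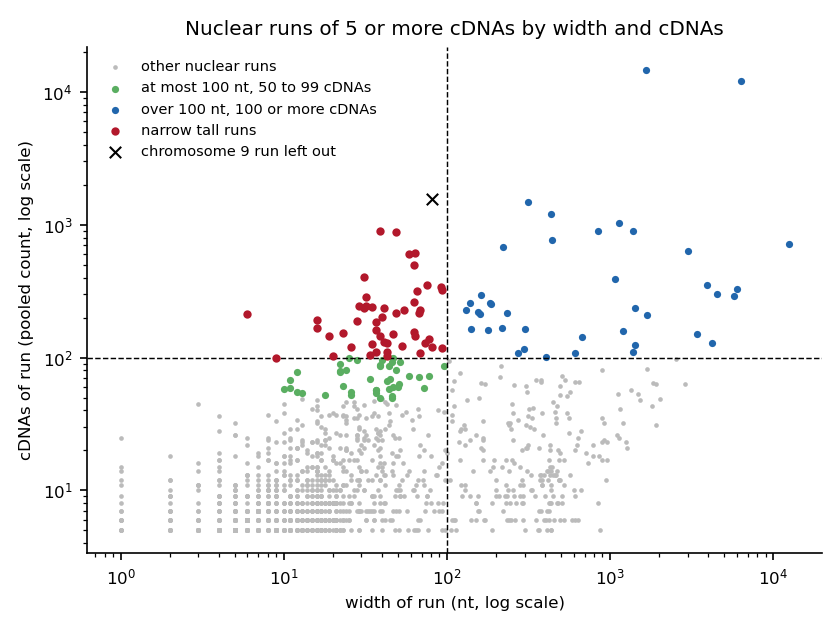
Nuclear runs of 5 or more cDNAs, by width (horizontal axis, nt, log scale) and cDNAs (vertical axis, log scale); dashed lines are the limits of 100 nt and 100 cDNAs, and colours mark the 50 narrow tall runs, the 42 narrow runs below the cDNA limit, the 40 wide runs and the chromosome 9 run left out. The left-out run, at 1559 cDNAs, lies above all 50, whose deepest has 892.

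The run left out by the rule was deeper and flatter than the 50. Its 1559 cDNAs over 81 nt compare with 892 in the deepest kept run. Its tallest nucleotide held 5.26%, under the lowest value among the 50 (6.11%).

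In many runs, most of the signal stood on part of the width. The median run was 42 nt wide with 26 sites, and a window of 18.5 nt (median) held 80% of its cDNAs; in 39 of 50 runs that window was 30 nt or less. The tallest nucleotide held a median of 20.8% of the run's cDNAs, from 6.11% to 67.5%. In 29 of 50 runs the second tallest was the adjacent nucleotide. This does not set the 50 apart from other narrow runs. The median distance between these nucleotides was 1 nt in the 50 and in narrow runs of 50 to 99 cDNAs. In wide runs of 100 or more it was 37.5 nt. Sites with a single cDNA were 362 of 1400 (25.9%), against 67.3% of 31491 nuclear sites outside these runs, a difference that the cDNA limit builds in.

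The 10 highest single sites lay in 8 of the runs and, beside those named above, included 135 cDNAs at 100421560 on the minus strand of chromosome 6 (47.0% of its run) and 129 at 146071952 in the sixth deepest run. At the sharp end of this range stood 4 runs with 50% or more of their cDNAs on a single nucleotide. On the plus strand of chromosome 10, the nucleotide at 9820778 held 112 of 166 cDNAs (67.5%), and its neighbour at 9820779 held 20. On the plus strand of chromosome 4, 141 of 235 cDNAs (60.0%) stood at 105310457, which was also the last site of the run, and 49 at the nucleotide before it. On chromosome 1, 52 of 102 cDNAs (51.0%) stood at 172958123, and on chromosome 18, 96 of 192 (50%) at 41356146, both on the plus strand. The plus-strand run that starts at 132834246 on chromosome 2 came next, with 57 of 121 cDNAs (47.1%) at 132834254. These are narrow spikes on a low skirt: between 26.7% and 64.3% of the sites in these 5 runs had 1 cDNA.

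At the flat end, 6 runs had under 10% on the tallest nucleotide. The lowest share was in a minus-strand run of chromosome 13 from 97960529, where 61 of 63 nt held a site and no nucleotide exceeded 16 of 262 cDNAs (6.11%). The others in rising order were the chromosome 5 run from 115940260 (7.10%), that on chromosome X from 33620804 (plus strand, 8.00%), that on chromosome 2 from 27395361 (minus strand, 8.55%), the deepest run on chromosome 12 (8.74%) and that on chromosome 7 from 118219615 (minus strand, 9.62%). Their depths, from 104 to 892 cDNAs, spanned nearly the whole range.

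A count of effective nucleotides puts spikes and broad runs on a single scale. It is the number of equally tall nucleotides that would give the same concentration. It ranged from 2.09 to 34.4 with a median of 9.43, and 23 of 50 runs had 10 or more. Wider runs had a lower share on the tallest nucleotide (Pearson r = -0.49, Spearman rho = -0.49 over 50 runs), whereas depth and that share were only weakly related (r = -0.14, rho = -0.17). These correlations are descriptions over runs of the same pooled list, which share libraries and depth.

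The narrowest runs were compact. On the minus strand of chromosome 13, all 6 nt from 20752448 to 20752453 held sites, with 214 cDNAs in all and 98 on the nucleotide at 20752452. Its 3 tallest nucleotides held 90.2% of them. On the plus strand of chromosome 3, all 9 nt from 43827079 to 43827087 held sites, with 100 cDNAs, the tallest (24) being the first. In both, every nucleotide of the run was occupied, which was the case in no other run of the 50.

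Some runs were in separate blocks. In 18 of 50 an unbroken stretch of 10 nt or more held no site. Other narrow runs were alike in this: the median longest empty stretch was 6 nt in the 50 and 6 nt in runs of 50 to 99 cDNAs. The longest such stretches were 58 nt on the minus strand of chromosome 2 from 27395361, 57 nt on the plus strand of chromosome 6 from 53383963, and 50 nt in each of the chromosome 5 runs.

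Read in the direction of transcription, the signal leaned to the 3′ side in many runs, without a clear majority. The tallest nucleotide lay upstream of the midpoint in 20 of 49 runs with a single tallest nucleotide (40.8%, interval 27.0% to 55.8%). Among all nuclear runs of 2 or more sites with a single tallest nucleotide off the midpoint, the share was 52.6%, which lies inside that interval. By the same count it was 43.2% of 37 narrow runs of 50 to 99 cDNAs and 45.7% of 35 wide runs of 100 or more. The interval treats runs as independent, but 4 chromosome 6 runs with like profiles, described below, all had their tallest nucleotide downstream. These shares are descriptions without a test. In 19 runs 20% or less of cDNAs lay upstream of the midpoint, in 10 runs 80% or more, and in 21 runs a share between these. The share upstream had a lower quartile of 14.0% and a median of 31.8%. In narrow runs of 50 to 99 cDNAs these were 17.3% and 42.7%, so a low share was common there too. The tallest nucleotide was within 3 nt of the 3′ end of the run in 7 runs and within 3 nt of the 5′ end in 6. The same end counts were not made for other runs.

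Among runs that leaned to an end, the plus-strand run on chromosome 2 from 37137570 put 34, 53 and 33 of its 244 cDNAs on its last 3 nt. The minus-strand run on chromosome 12 from 110252415 had 46 and 30 of 109 cDNAs on nucleotides 67 and 68 of 69. The plus-strand run on chromosome 6 from 53383963 had its tallest nucleotide, 43 of 139 cDNAs, at its last position. In the opposite sense, 98.2% of cDNAs of the third deepest run, on chromosome 16 from 11144137, lay upstream of its midpoint.

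Several runs at different places had similar profiles. The closest example by position was the chromosome 5 pair, 705 nt apart on the plus strand and 92 and 94 nt wide. The first had a block of 3 nt with 83 cDNAs, then 50 empty nt, then a block of 36 sites with 258 cDNAs. The second had a block of 2 nt with 26 cDNAs, again 50 empty nt, then 41 sites with 298 cDNAs. Pearson r between the whole profiles, over nucleotides and at the best shift of 1 nt, was 0.81, and 0.90 without the tallest nucleotide of each. The first block was the part that differed in height, with 67 cDNAs against 23 at its tallest nucleotide, and the second blocks alone gave r = 0.88 with no shift.

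On chromosome 6, runs on opposite strands 43.8 kb apart matched more closely. The minus-strand run from 128749486 (352 cDNAs) and the plus-strand run from 128793328 (228 cDNAs), each read 5′ to 3′, had r = 0.94 over the aligned nucleotides, the highest of 253 pairs among the 23 runs with 10 or more effective nucleotides. Without the tallest nucleotides it was 0.91. The median over the 253 pairs was 0.51.

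Both also resembled the runs on chromosome 6 from 47689896 (minus strand, 604 cDNAs) and from 43286249 (plus strand, 216 cDNAs). Over the 6 pairs these 4 runs form, r at any shift ranged from 0.79 to 0.94, and from 0.62 to 0.91 without the tallest nucleotides. The 4 share a double peak on the 3′ side. A second peak stood 6 nt before the tallest nucleotide in 3 of them and 7 nt before it in the chromosome 6 run from 43286249. In the run from 47689896 these nucleotides had 74 and 56 cDNAs, in that from 128749486 44 and 38, in that from 128793328 33 and 29, and in that from 43286249 43 and 29. These 4 runs were picked once their values had been seen. Such likeness was not confined to chromosome 6. The run from 47689896 had r = 0.84 with the plus-strand run on chromosome 5 from 60509515 (0.78 without the tallest nucleotides). With the plus-strand run on chromosome 11 from 4771252 it had r = 0.80 (0.77). The run from 43286249 had r = 0.82 with that chromosome 11 run (0.59), at a shift of 36 nt. The tallest nucleotides of the chromosome 5 run, with 21 and 19 cDNAs, were also 6 nt apart. Whether the listed loci are copies of an RNA, and how reads that map to several places were assigned, was not tested.

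A weaker likeness, with r below 0.8, was to a run outside the 50 on chromosome 16. The minus-strand run from 35981805 to 35981885 (119 cDNAs) faced a plus-strand run from 35981665 to 35981716, which fell below the cDNA limit with 93. The gap was 89 nt, and r between the profiles was 0.77 (0.61 without the tallest nucleotides). By contrast, the opposite-strand runs on chromosome 12 from 55797766 and 55835681, 37.9 kb apart, had r = 0.73 at a shift of 26 nt. This r dropped to 0.12 without the tallest nucleotides. Most of that likeness therefore lay in the tallest nucleotides.

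Across all pairs, likeness often lay in the tallest nucleotides. With shifts of up to 20 nt, 140 of 1225 pairs of the 50 runs had r of 0.8 or more. These were 132 of the 972 pairs in which a run had under 10 effective nucleotides and 8 of the 253 pairs in which neither had. At any shift, 11 of the 253 reached 0.8, and the chromosome 6 pair with r = 0.94 was among these but not among the 8. Of the 140, 24 kept 0.8 without the tallest nucleotides. The highest r of all, 0.99, was between the minus-strand run on chromosome 6 from 100421547 and the plus-strand run on chromosome 18 from 41356144, whose tallest nucleotides held 47.0% and 50% of cDNAs. That pair was among the 24, with r = 0.89 without them. Among narrow runs of 50 to 99 cDNAs, 64 of 861 pairs had r of 0.8 or more. These values are over nucleotides, which are not replicates, and are given without a test.

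**Figure D4:**
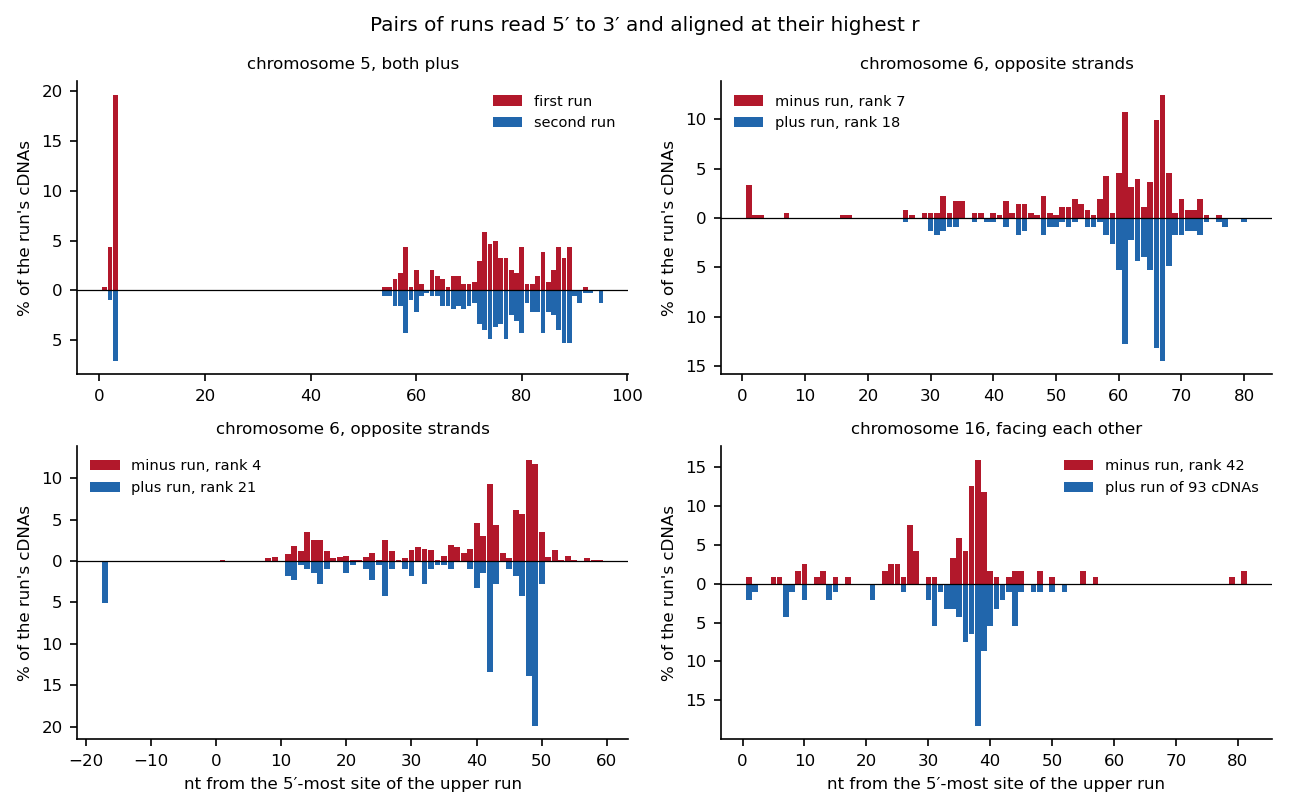
Pairs of runs read 5′ to 3′ and aligned at the shift of highest r, with the percent of the run's own cDNAs at each nucleotide, a run upward in red and the other downward in blue (linear axes). The chromosome 5 pair shares an empty stretch of 50 nt, the chromosome 6 pairs a double peak 6 or 7 nt apart, and the chromosome 16 pair, whose blue run of 93 cDNAs is not among the 50, a central peak.

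The 50 runs were scattered over 17 chromosomes and both strands. The plus strand held 29 (58.0%, interval 43.2% to 71.8%), and the 49.1% found over all nuclear runs lies inside that interval. Chromosome 6 had the most, 8 runs with 2642 cDNAs, followed by chromosomes 1, 2 and 12 with 5 each, of which chromosome 12 carried the most cDNAs (2205). The share on chromosome 6 was 16% (interval 7.17% to 29.1%), against 5.95% of all nuclear runs. Of the 8 runs, 4 are the ones with like profiles named above, so they may not be independent. That chromosome was singled out after the counts were seen, and the difference was not tested. No opposite-strand site lay inside any of the 50 runs.

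Most stood alone. Outside the run itself, no listed site of the same strand lay within 20 kb of 37 runs (74.0%, interval 59.7% to 85.4%). This is close to the 76.3% of all nuclear runs, so isolation does not set the 50 apart from the list. It was 71.4% of 42 narrow runs with 50 to 99 cDNAs and 50% (interval 33.8% to 66.2%) of 40 wide runs with 100 or more. The median distance to the next same-strand site was 175 kb, and the largest 2177 kb, for the plus-strand run on chromosome Y from 2536986, where 67 of 145 cDNAs stood at 2536996.

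Of the 13 runs with a same-strand site within 20 kb, the plus-strand run on chromosome 6 from 128793328 had the nearest, at 580 nt, and the chromosome 5 runs were each other's nearest. No other member lay within 20 kb of a member. Opposite-strand sites within 20 kb were found for 6 runs (12%, interval 4.53% to 24.3%), against 7.4% of all nuclear runs. The nearest were 89 nt away, the chromosome 16 case above, and 445 nt away, beside the fifth deepest run on chromosome 6 from 72756955.

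**Figure D5:**
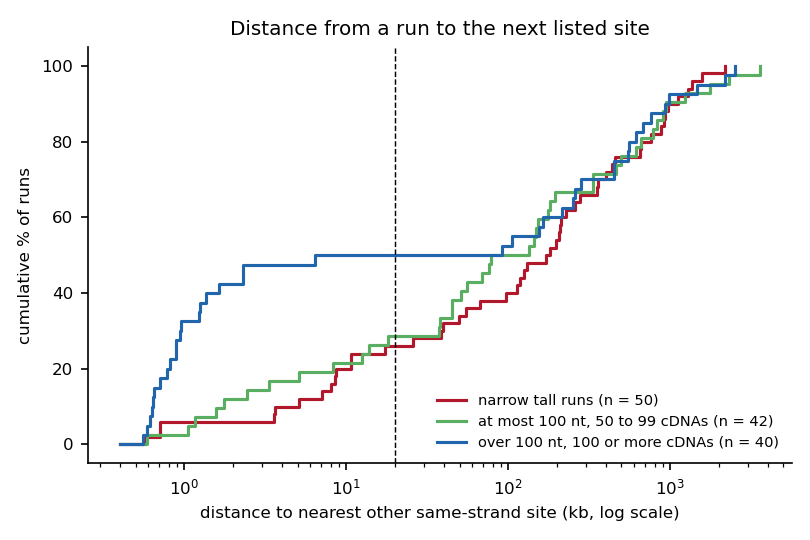
Cumulative percent of runs (vertical axis) by distance to the nearest other listed site on the same strand (horizontal axis, kb, log scale), for the 50 narrow tall runs, 42 narrow runs of 50 to 99 cDNAs and 40 wide runs of 100 or more; the dashed line is 20 kb. At 20 kb, 74.0% of the 50 runs have no such site, against 71.4% and 50% of the others.

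Set beside their nearest kin, the 50 resembled narrow runs of lower depth in shape. The tallest nucleotide held a median of 20.8% of cDNAs in the 50 and 23.3% in the 42 runs of 50 to 99 cDNAs, and the 80% window was 18.5 and 13 nt. Among any 50 cDNAs drawn from a run, the expected number of different nucleotides was a median of 16.3 in the 50 and 14.6 in the 42, which compares them at equal depth. In the 40 wide runs it was 36.4, and the tallest nucleotide held a median of 6.45%. Since width and cDNAs defined these classes, the values are side-by-side descriptions.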

How the data were processed

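A single deposited file was used, a list of significant crosslink sites on mm9. Its value is a score per site: a whole number of cDNAs, signed by strand, which the authors summed over 5 data sets, per the file header; their relation to the 4 labelled libraries is not stated. The authors compared each site's 15 nt neighbourhood with 100 permutations, region by region on Ensembl 59, and listed those with FDR below 0.05, per the file header. The submitters' processing notes name Bowtie 0.10.1. How duplicates and reads that map to several places were treated, which can move cDNAs between copies of an RNA, is not given in the sources that were used. Depth per library is unknown.

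Runs were built as described, and absolute values were summed. Effective nucleotides are the squared sum over the sum of squares. Profiles were compared by Pearson r with empty nucleotides at 0, at the best shift within 20 nt; comparisons at any shift and without the tallest nucleotides were added after the data were seen. The rule for items to be named took the 10 deepest runs, the 10 highest sites, the 5 sharpest and 5 flattest runs, runs beside each limit, member runs under 20 kb apart and pairs with r of 0.8 or more; as 140 pairs met the last, those named were picked after their values were seen. The sixth flattest run, the narrowest runs and the runs leaning to an end were too. The members and lists were chosen with earlier results of these data known. The run builder was tested on simulated data. Python 3.11.15, numpy 2.4.6, pandas 2.3.3, scipy 1.17.1 and matplotlib 3.10.9 were used. The reference at hand is GRCm38, so genes and sequences were not analysed here.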

Additional observations from a re-analysis of the deposited data

How the results depend on the processing

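Each of 9 results was recomputed under 9 alternatives: a gap of 100 or 1000 nt ending a run, sites of 2 or more cDNAs alone, widths of at most 50 or 200 nt, minimums of 50 or 200 cDNAs, the deepest run left out, and the chromosome 9 run included (added after the data were seen). Counts were held against 1.5 times the value, shares against their interval, and medians against 1 SD over runs; 73 of 81 values stayed within these. Of the other 8, 7 were counts set by the alternative's own limit. With widths of at most 50 nt there were 31 runs, 677 sites and 6926 cDNAs. There, 20.4% of pairs had r of 0.8 or more in place of 11.4%; the cause was not tested. With 50 or more cDNAs there were 92 runs with 2181 sites, and with 200 or more 23 runs with 776 sites. A gap of 1000 nt kept 47 of the 50 runs, and sites of 2 or more cDNAs overlapped 47. No paired analysis was possible because the list is a single pooled sum with no value per library, and the labels give 1 group; leaving out a library was not possible for the same reason.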

Other observations

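The plus-strand runs on chromosome 1 from 172958093 and 173041590 were 83.5 kb apart and each 43 nt wide, with 102 and 110 cDNAs. Their profiles had r = 0.90 at a shift of 14 nt and 0.76 without the tallest nucleotides, so the equal widths did not come with peaks at the same place: the tallest nucleotide was the 31st in the first and the 17th in the second. The minus-strand run of that chromosome from 173433204 was 20 nt wide with 12 sites and 102 cDNAs, and had no site of a single cDNA. The only other of the 50 runs without such a site was the 9 nt run on chromosome 3 from 43827079.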
